A study of Mus musculus with 18 samples.

Results

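Brown and beige fat cells burn fuel for heat, and 10 genes known as their markers were followed here through the conversion of a fibroblast line into fat cells. They were chosen by name, as the rows called Ucp1, Ucp2, Ucp3, Cox7a1, Cox8b, Ppargc1a, Ppargc1b, Prdm16, Dio2 and Elovl3, and each was found once among the 25209 gene names of every library. Of the 10 genes, 6 passed the filter for testing (at least 1 TPM in at least 3 libraries) and the other 4, Ucp1, Prdm16, Dio2 and Elovl3, stayed under 1 TPM in all 18 libraries.

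The cells were mouse 3T3-L1, an established preadipocyte line that is usually taken as a model of white fat, and polyadenylated RNA was sequenced. Induction began 2 days past confluence, per the labels' protocols, and lasted 48 h in 10 µg/mL insulin, 0.25 µM dexamethasone and 0.5 mM IBMX, which blocks the breakdown of cAMP. Cells were then kept in 5 µg/mL insulin, changed every 2 days. The 18 libraries form 6 groups of 3, namely Control, MCE1, MCE2, Day4, Day6 and Day8. MCE1 and MCE2 are stages of mitotic clonal expansion, the rounds of division that follow induction. Day4, Day6 and Day8 are 4, 6 and 8 days after the differentiation stimuli, and the labels leave unclear whether days count from the start or the end of the induction. No hour is given for MCE1 and MCE2. No genotype, transgene or thermogenic stimulus such as cold or a beta-adrenergic agonist is named for any group. Whether the 3 replicates of a group came from separate cultures is not stated, so a p-value here measures the spread between libraries, which may be technical. TPM is a level scaled by transcript length and library total. It keeps no record of depth, which is therefore unknown, and no counting error can be given.

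Heat production in brown fat rests on uncoupling of the mitochondrial proton gradient from ATP synthesis by UCP1, on a large capacity for oxidation, and on regulators such as PRDM16 and the PGC-1 coactivators that switch this program on. Thyroid hormone made active inside the cell by the deiodinase DIO2 and noradrenaline acting on beta-adrenergic receptors raise its activity. White fat cells store lipid and, in the mouse, some white depots can take on a similar program, which is called beige.

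Of the 10 genes, 3 rose in mean TPM at Day6 and again at Day8 (Cox7a1, Cox8b and Ucp3), and Ucp1 was listed at 0 throughout. The 250 bases before the start of these 4 genes are therefore shown, from RefSeq on the GRCm38.p6 build, which is not the mm9 build of the TPM files. Capitals mark matches, on either strand, to AGGTCA, the core motif bound by nuclear receptors, and to CCAAT, a common promoter element.
Cox7a1 (chr7:30183921-30184170, plus strand): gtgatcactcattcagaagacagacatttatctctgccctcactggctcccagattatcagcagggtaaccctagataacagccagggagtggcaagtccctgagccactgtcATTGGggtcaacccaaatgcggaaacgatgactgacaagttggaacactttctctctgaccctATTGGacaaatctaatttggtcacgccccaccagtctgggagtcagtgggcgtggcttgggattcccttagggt
Cox8b (chr7:140900447-140900696, minus strand): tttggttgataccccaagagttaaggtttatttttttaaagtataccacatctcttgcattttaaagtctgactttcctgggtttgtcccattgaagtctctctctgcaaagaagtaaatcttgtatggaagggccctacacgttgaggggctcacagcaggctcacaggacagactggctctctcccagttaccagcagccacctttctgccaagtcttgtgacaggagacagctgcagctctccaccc
Ucp3 (chr7:100472741-100472990, plus strand): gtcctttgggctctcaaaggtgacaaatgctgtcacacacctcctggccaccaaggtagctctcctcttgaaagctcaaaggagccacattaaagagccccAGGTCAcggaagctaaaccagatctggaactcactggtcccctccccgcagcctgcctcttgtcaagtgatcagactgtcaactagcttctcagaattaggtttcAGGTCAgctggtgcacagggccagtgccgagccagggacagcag
Ucp1 (chr8:83290098-83290347, plus strand): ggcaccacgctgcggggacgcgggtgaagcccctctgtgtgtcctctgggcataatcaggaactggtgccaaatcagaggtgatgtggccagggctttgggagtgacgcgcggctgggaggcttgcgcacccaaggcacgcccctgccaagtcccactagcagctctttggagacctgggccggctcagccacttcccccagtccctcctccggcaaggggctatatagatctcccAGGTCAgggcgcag
The table held a promoter for 8 of the 10 genes. AGGTCA was matched 2 times in this window of Ucp3, 1 time in that of Ucp1 and 0 times in the other 6, and 14.02% of the 32851 promoters kept held it. CCAAT was matched 2 times for Cox7a1, 1 time for Prdm16 and 0 times in the other 6, against 33.8% of promoters with a match. Of 4 further motifs searched, the cAMP response element TGACGTCA (1.55% of promoters), the C/EBP site TTGCNNAA (9.56%) and the TATA box TATAAA (12.4%) each had 1 match, all in Dio2. The GC box GGGCGG (32.7%) had 1 match each in Ucp2 and Prdm16. Both strands were searched, and the letters of none of the 6 motifs contain another. No searched motif had a match in all of Cox7a1, Cox8b and Ucp3 in this window, which says only that these letters are not there.

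Most genes of the whole table differed somewhere among the 6 groups. An F test in limma called 87.6% of the 12695 genes tested at an adjusted p under 0.05, and 6 of the 6 tested markers. The adjusted p ranged up to 2.37e-09, for Ppargc1a. A share this high in the whole table means that the count says little about these genes, and their values are given in turn. Each change below is a difference in log2(TPM + 1) with its SE, a scale that shrinks the changes of low genes. In bulk RNA a change in the number of cells that carry a transcript and a change in its amount per cell cannot be told apart.

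**Figure D1:**
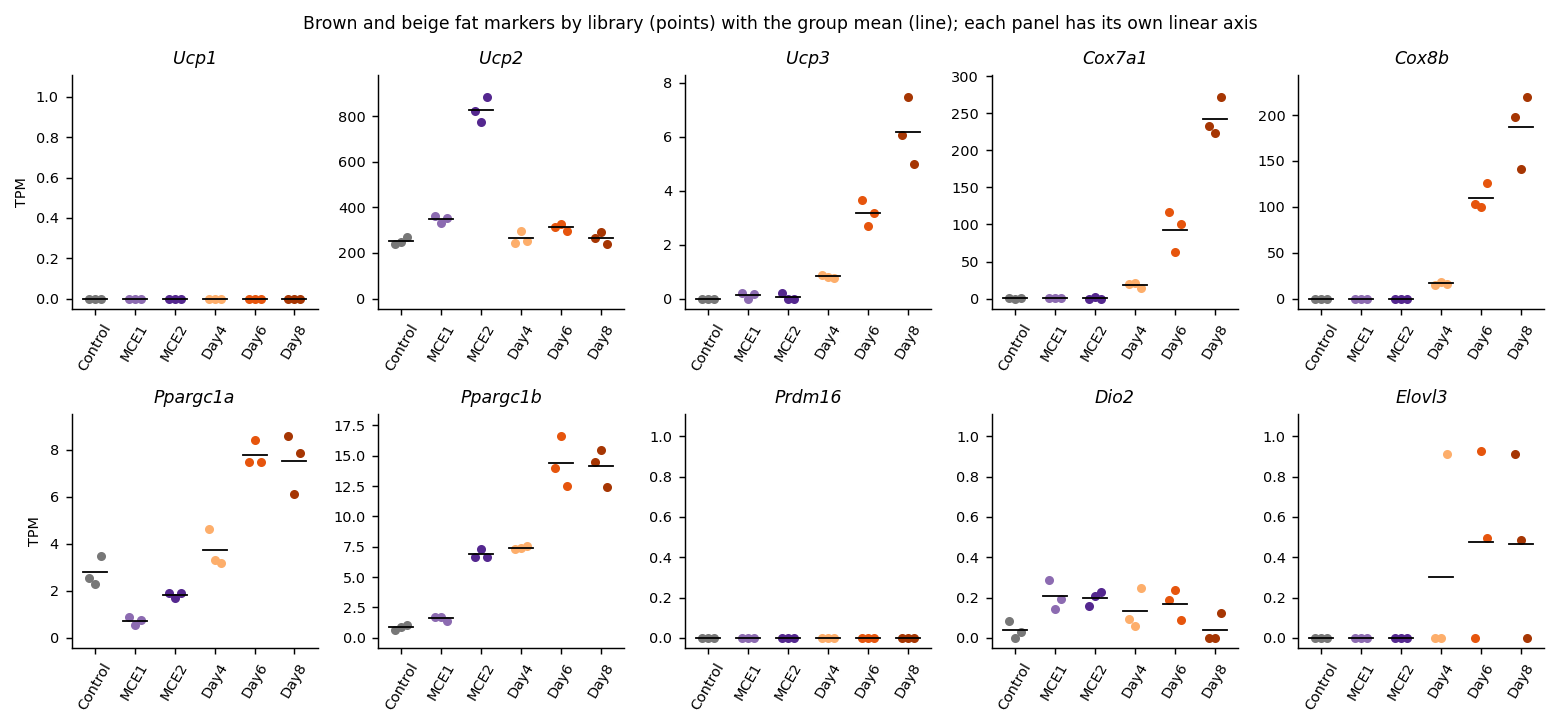
TPM of the 10 genes in each of the 18 libraries (points) with the group mean (line), by group from Control to Day8, each panel on its own linear axis. Cox7a1, Cox8b and Ucp3 are highest in Day8, Ucp2 is highest in MCE2, and Ucp1 and Prdm16 are listed at 0 in all 18 libraries.

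Ucp1, whose product is the proton channel that defines thermogenic fat, was listed at 0 TPM in all 18 libraries (mm9 chromosome 8, 85814247 to 85822355). Ucp2, a relative found in many tissues, was abundant in every library (chromosome 7, 107641867 to 107648138). It read 239, 249 and 271 TPM in Control, 360.1, 333 and 354 TPM in MCE1, and 822, 773 and 885 TPM in MCE2. It then read 244, 298 and 254 TPM in Day4, 316, 329 and 297 TPM in Day6, and 266, 289.9 and 241 TPM in Day8. The 3 MCE2 libraries lay above the other 15, while Control, Day4 and Day8 overlapped. Ucp2 rose at MCE1 against Control by 0.46 ± 0.08 (adjusted p = 0.000174) and at MCE2 against MCE1 by 1.24 ± 0.08 (adjusted p = 6.11e-09). It fell by 1.64 at Day4 against MCE2 (adjusted p = 2.68e-10). At Day8 against Control the difference was 0.07 ± 0.08 (adjusted p = 0.467), and at Day4 against Control 0.06 ± 0.08 (adjusted p = 0.502). Median-ratio scaling between libraries called both higher, by 0.20 (adjusted p = 0.0409) and by 0.21 (adjusted p = 0.0342). The small steps from Day4 to Day6 (0.25 ± 0.08, adjusted p = 0.0375) and from Day6 to Day8 (-0.24 ± 0.08, adjusted p = 0.0462) passed the threshold narrowly and lost it under several alternatives, given in the closing section. At its highest, in MCE2, Ucp2 ranked 159 of 25197 genes by mean TPM.

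Ucp3, the relative typical of skeletal muscle and brown fat, lies on the same chromosome (107621500 to 107634941), 6925 bases from Ucp2. It was listed at 0 in the 3 Control libraries, at 0.219, 0 and 0.166 TPM in MCE1 and at 0.201, 0 and 0 TPM in MCE2. It read 0.885, 0.812 and 0.765 TPM in Day4, 3.67, 2.70 and 3.19 TPM in Day6, and 6.07, 7.48 and 4.99 TPM in Day8. From Day4 on each group lay wholly above the one before. Ucp3 rose at Day6 against Day4 by 1.19 ± 0.14 (adjusted p = 1.58e-05) and at Day8 against Day6 by 0.77 ± 0.14 (adjusted p = 0.00132). The last call was lost with a pseudocount of 0.1 (0.93, adjusted p = 0.187). Day8 was higher than Control (adjusted p = 3.77e-11), with no fold given because Control was listed at 0. Ucp3 passed the filter only through Day6 and Day8, so its comparison with Control is a description. The neighbours Ucp2 and Ucp3 thus had their maxima at different stages, MCE2 and Day8. Of the summed TPM of the 3 uncoupling protein genes, Ucp2 made up 97.7% ± 0.245 in Day8 and 100% in Control (SD, n = 3). Among further mitochondrial carriers called uncoupling proteins in part of the literature, Slc25a30 averaged 13.3 ± 2.21 TPM in Day8 and 34.2 ± 0.162 TPM in Control, and fell by 1.31 (adjusted p = 1.84e-06). Slc25a27 averaged 0.701 ± 0.204 TPM in Day8 and 1.68 ± 0.274 TPM in Control, and fell by 0.66 (adjusted p = 0.000321). Slc25a14 did not pass the filter.

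Cytochrome c oxidase, complex IV of the respiratory chain, has subunits with tissue forms, and Cox7a1 and Cox8b encode the forms of heart, skeletal muscle and brown fat. Cox7a1 (chromosome 7, 30969190 to 30971049) stayed at or below 1.57 TPM in the 9 libraries up to MCE2. It read 0.920, 0 and 1.15 TPM in Control, 0.592, 0.547 and 0.690 TPM in MCE1, and 0, 1.57 and 0 TPM in MCE2. It then read 20.2, 20.5 and 14.3 TPM in Day4, 116, 62.5 and 101 TPM in Day6, and 232, 224 and 272 TPM in Day8. Those 3 late groups did not overlap each other or any earlier group, whereas the 3 early groups overlapped. Cox7a1 was higher in Day8 than in Control by 7.24 ± 0.35 (adjusted p = 2.18e-11), and rose at each late step. These steps were 3.80 ± 0.35 at Day4 against MCE2 (adjusted p = 2.23e-07), 2.26 ± 0.35 at Day6 against Day4 (adjusted p = 0.000171) and 1.41 ± 0.35 at Day8 against Day6 (adjusted p = 0.00853). With a pseudocount of 0.1 the last 2 steps were not called (2.31, adjusted p = 0.0996, and 1.42, adjusted p = 0.341). Cox7a1 passed the filter only through Day4, Day6 and Day8, so its comparisons with Control and MCE2 are a description.

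Cox8b (chromosome 7, 148084841 to 148086345) was listed at 0 in all 9 libraries of Control, MCE1 and MCE2. It read 14.9, 18.5 and 16.2 TPM in Day4, 103, 100.02 and 126 TPM in Day6, and 198, 141 and 219.8 TPM in Day8. Each of these groups lay above the one before without overlap. Cox8b rose at Day6 against Day4 by 2.66 ± 0.14 (adjusted p = 2.77e-09) and at Day8 against Day6 by 0.74 ± 0.14 (adjusted p = 0.00125). Day8 was higher than Control (adjusted p = 2.03e-16), again with no fold because Control was at 0. Cox8b passed the filter only through Day4, Day6 and Day8, so this comparison is a description. By mean TPM in Day8, Cox7a1 ranked 636 and Cox8b 869 of 25197 genes.

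The forms found in most tissues were present at every stage. Cox7a2 averaged 332 ± 54.4 TPM in Day8 and 163 ± 10.7 TPM in Control (1.01 ± 0.10 higher, adjusted p = 9.78e-08). Cox8a averaged 1614 ± 82.0 TPM in Day8 and 725 ± 18.3 TPM in Control (1.15 ± 0.07 higher, adjusted p = 2.35e-10). Cox7a2l, a related protein that helps join respiratory complexes, was higher by 0.91 ± 0.17 (adjusted p = 0.00018), and Cox8c was listed at 0 throughout. Cox7a1 made up 42.4% ± 3.23 of the summed TPM of Cox7a1 and Cox7a2 in Day8 (SD, n = 3), against 0.531%, 0% and 0.75% in the 3 Control libraries. On the way it was 6.46% ± 0.766 in Day4 and 20.4% ± 4.04 in Day6. Cox8b reached a smaller part of its pair, 10.3% ± 2.02 of Cox8a plus Cox8b in Day8 against 0% in Control. The shares are given as a description and were not tested. For Cox7a1, as for Cox8b, 0% of its 50-base stretches were shared with another gene's transcripts in GENCODE vM21.

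**Figure D2:**
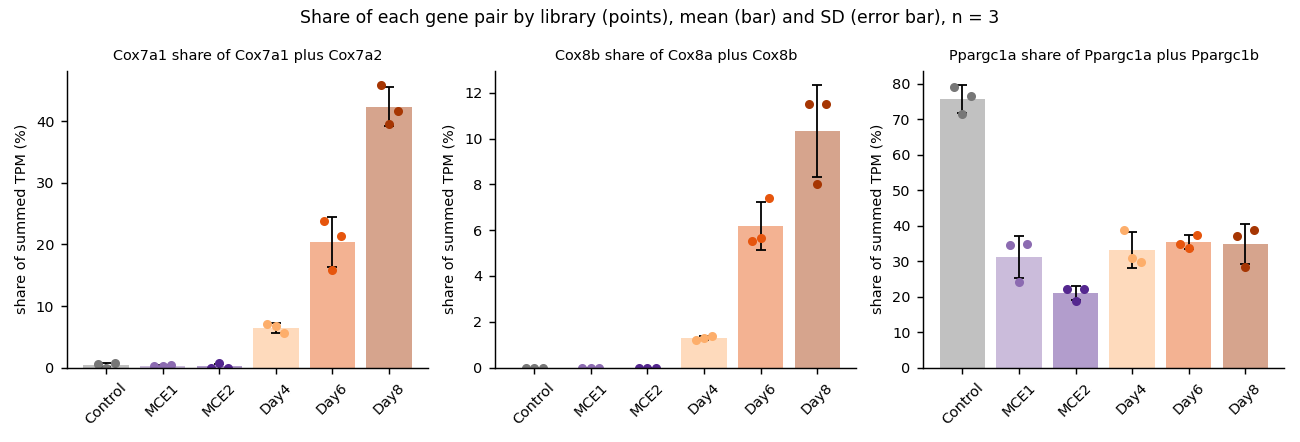
Share of a gene in the summed TPM of its pair, in percent, for each library (points), with the mean (bar) and SD (error bar) of the 3 libraries of a group from Control to Day8. Cox7a1 reaches 42.4% in Day8 and Cox8b 10.3%, and Ppargc1a makes up 34.8% in Day8 against 75.7% in Control.

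Among 14 other nuclear-encoded genes of complex IV, Cox7a2, Cox7a2l and Cox8a included, 13 were tested and 12 were higher in Day8 than in Control, 0 lower and 1 not called, where 71.4% of all genes were called, 31.7% higher and 39.7% lower. Their median change was 1.15, against -0.11 for all genes tested. Cox6a1 averaged 3404 ± 631 TPM in Day8 and 716 ± 38.2 TPM in Control (2.23 ± 0.10, adjusted p = 1.61e-11). Cox4i1 averaged 2241 ± 296 TPM in Day8 and 612 ± 21.5 TPM in Control (1.86 ± 0.09, adjusted p = 9.99e-12). Cox6c was higher by 1.38 ± 0.07 (adjusted p = 3.51e-11). Each of the 13 changed by less than Cox7a1, though the difference between subunits was not tested. Cox6a2, the muscle form of a further subunit, had the largest change of the list. It read 17.3, 19.6 and 23.0 TPM in Day8 and 0.306, 2.16 and 1.11 TPM in Control (3.34 ± 0.36, adjusted p = 4.44e-07). Cox6a2 too passed the filter only through Day4, Day6 and Day8, so that comparison is a description. Cox4i2, a form typical of lung, was not called (0.03 ± 0.36, adjusted p = 0.945).

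**Figure D3:**
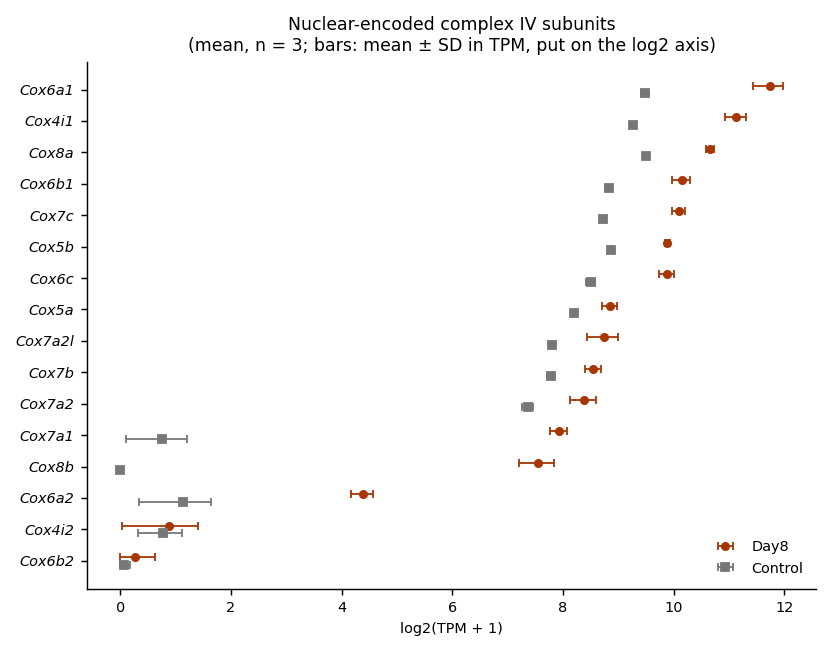
Level of 16 nuclear-encoded genes of complex IV, with the related Cox7a2l included and Cox8c left out, as log2(TPM + 1). Day8 (circles) and Control (squares) are shown as the mean of 3 libraries with 1 SD on either side. Cox7a1 and Cox8b lie furthest apart between the groups, and the widely expressed subunits are present in both.

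Genes of oxidative muscle were looked at because Cox7a1, Cox8b and Ucp3 are also muscle genes. Of 10 skeletal muscle markers, 7 were listed at 0 in all 18 libraries, including the muscle determination factors Myod1, Myog and Myf5, the creatine kinase Ckm and the myosins Myh1, Myh2 and Myh4. The summed TPM of the 10 markers ranged from 16.6 to 18.6 in Day8 and from 9.85 to 11.6 in Control. Mb (myoglobin, an oxygen carrier of muscle, singled out after its values were seen) was listed at 0 in Control, MCE1 and MCE2. It read 1.68, 1.44 and 0.915 TPM in Day4, 4.65, 3.83 and 5.32 TPM in Day6, and 12.01, 13.0 and 12.8 TPM in Day8. It was higher in Day8 than in Day6 by 1.29 ± 0.13 (adjusted p = 7.44e-06), though 24.9% of its 50-base stretches are shared with another gene. Mb was picked for these same values and passed the filter only through the late groups, so this difference is a description. The skeletal actin Acta1 went the other way, with 0 to 1.77 TPM in the Day8 libraries and 7.49 to 9.71 TPM in the Control libraries, and fell by 2.36 (adjusted p = 3.48e-06). Actn3, a muscle alpha-actinin, averaged 4.01 ± 0.419 TPM in Day8 and 2.32 ± 0.493 TPM in Control (0.60 ± 0.14, adjusted p = 0.00147). Whether muscle-type cells play a part in these values was not tested. Of 4 cardiac markers, 3 stayed under 1 TPM throughout, and their sum was 0 in the 3 Day8 libraries and 1.72 to 2.58 TPM in Control.

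**Figure D4:**
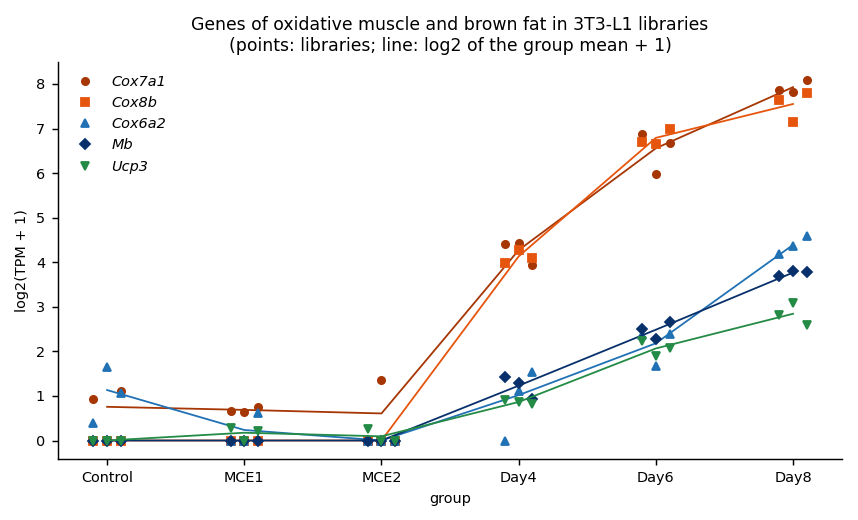
Level, as log2(TPM + 1), of Cox7a1, Cox8b, Cox6a2, Mb and Ucp3 in each library (points) by group from Control to Day8, with a line through the log2 of the group mean plus 1. All 5 are highest in Day8, and Cox8b and Mb are listed at 0 up to MCE2.

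The transcriptional regulators behaved differently from each other. PGC-1 coactivators bind nuclear receptors and raise the transcription of mitochondrial genes, and PGC-1 alpha, from Ppargc1a, is induced by cold and cAMP in brown fat. Ppargc1a (chromosome 5, 51845488 to 51945160) read 2.55, 2.31 and 3.50 TPM in Control, 0.897, 0.555 and 0.750 TPM in MCE1, and 1.91, 1.68 and 1.91 TPM in MCE2. It then read 4.64, 3.32 and 3.19 TPM in Day4, 7.46, 8.41 and 7.48 TPM in Day6, and 8.57, 6.10 and 7.87 TPM in Day8. MCE1 was the lowest group, and Day6 and Day8 overlapped each other above all the rest. Ppargc1a fell by 1.12 at MCE1 against Control (adjusted p = 1.27e-05). It was higher than Control by 1.22 ± 0.15 in Day6 (adjusted p = 2.49e-06) and by 1.17 ± 0.15 in Day8 (adjusted p = 3.82e-06). At MCE2 it was lower than Control by a small amount (-0.41 ± 0.15, adjusted p = 0.0287). That call was lost under median-ratio scaling (-0.27, adjusted p = 0.145), under quantile normalization (-0.14, adjusted p = 0.464), without Control replicate 3 (-0.28, adjusted p = 0.15) and without MCE2 replicate 2 (-0.37, adjusted p = 0.081). Day4 was not called against Control (0.32 ± 0.15, adjusted p = 0.0762), and was called higher under median-ratio scaling (0.42, adjusted p = 0.0224) and without Control replicate 3 (0.45, adjusted p = 0.0225).

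Ppargc1b, which encodes PGC-1 beta, a coactivator of basal mitochondrial gene expression, rose from the start (chromosome 18, 61451099 to 61560066). It read 0.673, 0.925 and 1.07 TPM in Control, 1.71, 1.74 and 1.41 TPM in MCE1, and 6.69, 7.29 and 6.70 TPM in MCE2. It then read 7.32, 7.41 and 7.58 TPM in Day4, 14.01, 16.6 and 12.5 TPM in Day6, and 14.5, 15.4 and 12.4 TPM in Day8. MCE2 and Day4 lay close together without overlap, well above MCE1, and Day6 and Day8 overlapped above both. Ppargc1b rose at MCE1 against Control by 0.48 ± 0.12 (adjusted p = 0.00316), at MCE2 against MCE1 by 1.59 ± 0.12 (adjusted p = 2.30e-08) and at Day6 against Day4 by 0.86 ± 0.12 (adjusted p = 6.20e-05). The steps from MCE2 to Day4 (0.10 ± 0.12, adjusted p = 0.525) and from Day6 to Day8 (-0.02 ± 0.12, adjusted p = 0.93) were not called. The balance within the pair changed accordingly. Ppargc1a made up 75.7% ± 3.94 of their summed TPM in Control, 31.1% ± 5.99 in MCE1, 21.0% ± 2.02 in MCE2 and 34.8% ± 5.64 in Day8 (SD, n = 3). Pprc1, the more distant relative of the family that is linked to growth, fell by 1.36 to 17.1 ± 2.68 TPM in Day8, against 45.4 ± 5.20 TPM in Control (adjusted p = 2.49e-06).

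Of 27 partners and targets of the PGC-1 proteins, 23 were tested, and 9 were higher, 6 lower and 8 not called in Day8 against Control, with a median of 0.15. That is 15 of 23 called, near the 71.4% called over all genes (31.7% higher, 39.7% lower). Esrra, the estrogen-related receptor through which PGC-1 proteins act on mitochondrial genes, averaged 136 ± 14.3 TPM in Day8 and 36.9 ± 2.28 TPM in Control (1.85 ± 0.08, adjusted p = 4.96e-12). The mitochondrial deacetylase Sirt3 was higher by 1.79 ± 0.27 (adjusted p = 2.34e-05), with 17.9, 32.8 and 12.2 TPM in the Day8 libraries. The factor Foxo1 rose by 1.97 ± 0.08 (adjusted p = 1.71e-12) and the coactivator Ncoa1 by 1.94 ± 0.13 (adjusted p = 1.14e-09). Yy1 was not called (0.09 ± 0.07, adjusted p = 0.222). Pparg, the nuclear receptor at the head of fat cell formation, was not called either (1.06 ± 0.61, adjusted p = 0.134). It read 35.4, 45.2 and 183.9 TPM in the Day8 libraries, from lowest to highest, and 29.5 to 33.0 TPM in Control, so 1 Day8 library lay far above the other 5. Esrrg, a relative of Esrra found in brown fat and muscle, was listed at 0 in all 18 libraries.

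Prdm16, which in mice drives the brown fate in fat precursors, was listed at 0 TPM in all 18 libraries (chromosome 4, 153690234 to 154010982). The 2 other genes listed within its span, 5930403L14Rik and Gm13133, were also at 0 throughout. Mecom, its closest relative, was measured, at 4.43 ± 0.446 TPM in Day8 and 6.27 ± 0.918 TPM in Control (-0.42 ± 0.24, adjusted p = 0.125). Of 16 genes whose products act with PRDM16, 15 were tested and 4 were higher, 5 lower and 6 not called in Day8 against Control, with a median of -0.17. Called were thus 9 of 15, no more than the background of 71.4% (31.7% higher, 39.7% lower). Cebpa, a driver of fat cell formation of any kind, rose by 6.45 ± 0.16 (adjusted p = 5.09e-15) and Cebpb by 1.04 ± 0.16 (adjusted p = 2.70e-05). Zfp423, a factor known in mice to hold down the beige program in white fat, averaged 11.3 ± 0.991 TPM in Day8 and 2.83 ± 0.499 TPM in Control (1.69 ± 0.11, adjusted p = 1.51e-09). Ebf1 rose by 1.02 ± 0.18 (adjusted p = 9.18e-05). The histone methyltransferases Ehmt1 (-0.63 ± 0.28, adjusted p = 0.0536) and Ehmt2 (-0.14 ± 0.27, adjusted p = 0.656) were not called.

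Dio2, which activates thyroid hormone inside the cell, stayed at trace levels (chromosome 12, 91962992 to 91977478). It read 0.0861, 0 and 0.0305 TPM in Control, 0.289, 0.142 and 0.193 TPM in MCE1, and 0.156, 0.210 and 0.229 TPM in MCE2. It read 0.0916, 0.0606 and 0.249 TPM in Day4, 0.188, 0.236 and 0.0874 TPM in Day6, and 0, 0 and 0.121 TPM in Day8. No library reached 0.3 TPM. Day4 and Day8 overlapped Control, while MCE1, MCE2 and, narrowly, Day6 lay above it. Without the filter on low values, Dio2 was called higher at MCE1 (0.22, adjusted p = 0.0282) and at MCE2 (0.21, adjusted p = 0.0297) against Control, on levels under 0.3 TPM. The other deiodinase genes gave nothing to test, with Dio1 listed at 0 throughout and Dio3 under the filter. Of 16 genes of thyroid hormone handling, 10 were tested and 6 were higher, 1 lower and 3 not called in Day8 against Control (median 0.42). The 7 of 10 called compare with 71.4% of all genes (31.7% higher, 39.7% lower). Thrsp, a lipogenic gene that responds to thyroid hormone in liver, rose by 7.66 ± 0.07 to 212 ± 12.5 TPM in Day8, against at most 0.154 TPM in a Control library (adjusted p = 1.30e-19). Its highest mean was in Day4, at 647 ± 22.8 TPM. Thrsp passed the filter only through MCE2 and the Day groups, so its comparison with Control is a description. It is among the 6 counted as higher. The malic enzyme Me1 rose by 1.62 ± 0.06 (adjusted p = 4.14e-13). The receptor Thra averaged 129 ± 3.23 TPM in Day8 and 59.9 ± 5.51 TPM in Control (1.10 ± 0.06, adjusted p = 8.07e-11), and Thrb was listed at 0 throughout. Sepsecs, needed to make selenoproteins such as the deiodinases, rose by 1.10 ± 0.09 (adjusted p = 1.28e-08), while Ncor1 and Rxrb were not called.

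Elovl3, an elongase of very long chain fatty acids that is strongly induced by cold in brown fat, was listed at 0 in 13 of 18 libraries (chromosome 19, 46206387 to 46209802). Its values above 0 were 0.913 TPM in Day4 replicate 3, 0.926 and 0.496 TPM in Day6 replicates 2 and 3, and 0.913 and 0.483 TPM in Day8 replicates 1 and 2. All 5 lay in the late groups, each of which also held a library at 0. Without the filter the difference between Day8 and Control was not called (0.50, adjusted p = 0.129). Of the other elongases, Elovl5 averaged 78.4 ± 10.4 TPM in Day8 and 72.0 ± 2.40 TPM in Control and was not called (0.11 ± 0.08, adjusted p = 0.224). Elovl1 fell by 0.33 (adjusted p = 0.00698), Elovl6 fell by 1.51 (adjusted p = 1.30e-10) and Elovl4 fell by 1.93 (adjusted p = 8.98e-08). Elovl2 was listed at 0 throughout and Elovl7 did not pass the filter. In the whole list of 18 genes for fatty acid elongation and activation, 16 were tested and 5 were higher, 6 lower and 5 not called in Day8 against Control (median -0.05). The 11 of 16 called are near the 71.4% of all genes called (31.7% higher, 39.7% lower). Acsl1, which activates fatty acids, rose by 5.99 ± 0.08 (adjusted p = 3.92e-18) and the elongation enzyme Hacd2 by 2.87 ± 0.06 (adjusted p = 1.33e-15), while Acsl5 fell by 1.72 (adjusted p = 1.11e-12). Hacd2 had its highest mean in MCE2, at 302 TPM against 126 TPM in Day8. Hacd1 was not called (0.08, adjusted p = 0.616).

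Counted over the comparisons, all tested by limma, 5 of the 6 tested markers were called in Day8 against Control and all 5 were higher, where 71.4% of all genes were called, 31.7% higher and 39.7% lower. In Day6 against Control 6 of 6 were called higher, where 69.7% of all genes were called, 30.2% higher and 39.4% lower. In Day4 against Control 4 of 6 were called higher, where 69.0% were called, 29.7% higher and 39.3% lower. At MCE1 against Control 2 were higher and 1, Ppargc1a, was lower, where 51.4% were called, 22.0% higher and 29.4% lower. At MCE2 against Control the counts were again 2 higher and 1 lower, where 62.5% were called, 23.4% higher and 39.1% lower.

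Between neighbouring groups, 3 of 6 were called higher at MCE2 against MCE1, where 42.8% of all genes were called, 17.7% higher and 25.2% lower. At Day4 against MCE2 4 were higher and 1, Ucp2, was lower, where 51.6% were called, 29.6% higher and 22.0% lower. At Day6 against Day4 6 of 6 were called higher, where 25.7% were called, 14.5% higher and 11.2% lower. The median change of the 6 markers at that step was 1.05, against 0.02 for all genes. At Day8 against Day6 3 were higher and 1, Ucp2, was lower, where 21.7% were called, 10.1% higher and 11.6% lower. Genes that reach the filter only through late groups, such as Cox7a1, Cox8b and Ucp3, had to differ to be tested, so these counts are a description. So is the comparison with Control of any other named gene that was under 1 TPM in all 3 Control libraries. The comparisons with Control share its libraries. The median change of all genes against Control was -0.06 at MCE1, -0.17 at MCE2, -0.11 at Day4, -0.12 at Day6 and -0.11 at Day8, and median-ratio scaling brought it to between 0.00 and 0.03. That scaling gave 3611 higher of 6673 genes called at MCE1 against Control, where 2799 of 6526 were higher without scaling, and at MCE2 3932 of 7858 against 2969 of 7933. Quantile normalization gave 3831 of 7751 at MCE2. At Day4 against MCE2 3110 of 6502 genes called, or 47.8%, were higher under quantile normalization, against 57.4% without it.

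In a wider list of 34 brown and beige fat genes, 17 stayed under 1 TPM in all 18 libraries and 15 were tested. Listed at 0 throughout were 10 genes, among them the brown lineage factors Zic1 and Lhx8, the beige marker Tbx1 and the creatine cycle enzymes Ckmt1, Ckmt2 and Gatm. Of the 15 tested, 10 were higher, 3 lower and 2 not called in Day8 against Control, with a median of 1.48, and 3 of the 15 were listed at 0 in Control. Those 3 passed the filter through later groups and could not come out lower, so the count is a description. Over all genes 71.4% were called, 31.7% higher and 39.7% lower. Kcnk3, a potassium channel enriched in brown fat, averaged 109 ± 10.9 TPM in Day8 and 10.5 ± 1.29 TPM in Control (3.26 ± 0.09, adjusted p = 1.38e-14). Nrg4, a factor secreted by brown fat, averaged 16.9 ± 1.83 TPM in Day8 and 0.806 ± 0.345 TPM in Control (3.32 ± 0.19, adjusted p = 1.84e-10). Alpl, a phosphatase of the creatine cycle, stood at 5.67 ± 0.412 TPM in Day8 and at 0 in Control (adjusted p = 3.44e-11). Its highest mean was in MCE1, at 12.2 ± 0.881 TPM, and it was lower in MCE2 than in MCE1 (adjusted p = 5.08e-08). The creatine transporter Slc6a8 fell by 1.90 to 38.2 ± 0.544 TPM in Day8, against 146 ± 8.41 TPM in Control (adjusted p = 1.25e-13). Zfp516 (0.22, adjusted p = 0.802) and Gk (-0.62, adjusted p = 0.122) were not called. Cidea, a lipid droplet protein and common brown marker that was singled out after its values were seen, was at 0 up to Day4. It read 0.701, 1.48 and 1.16 TPM in Day6 and 4.91, 1.89 and 2.53 TPM in Day8.

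**Figure D5:**
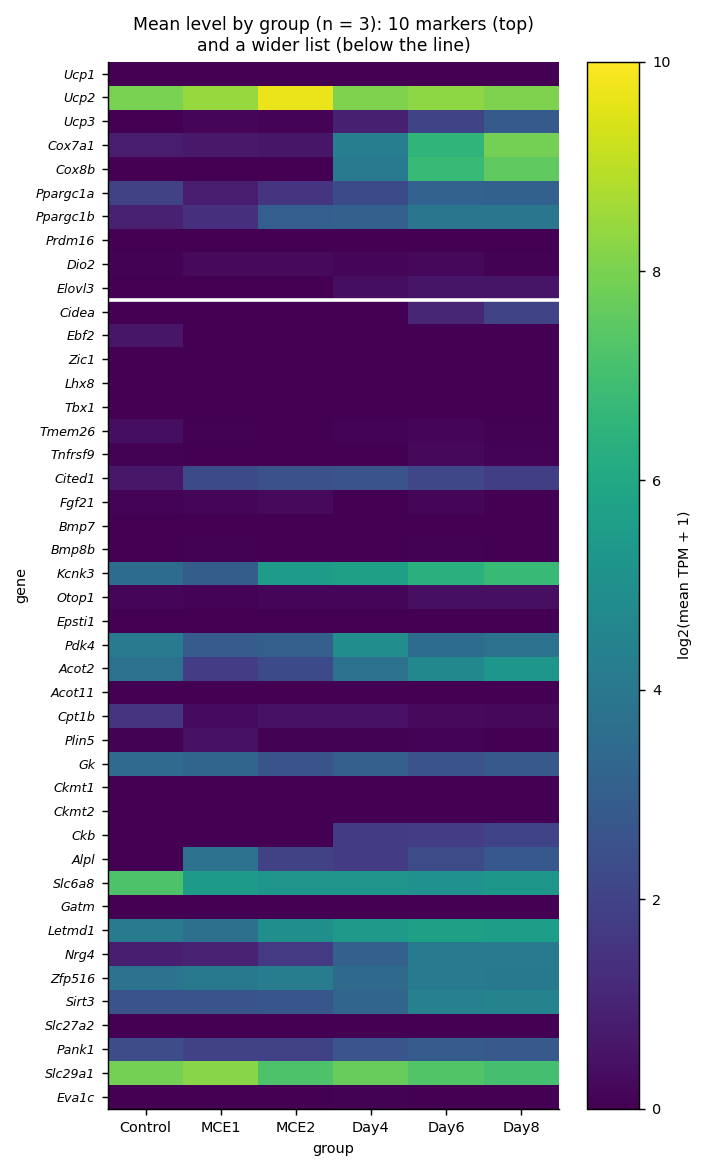
Mean level of each gene by group from Control to Day8, as log2(mean TPM + 1) in color, for the 10 markers above the white line and the 34 genes of the wider list below it. Dark rows are genes near 0 in every group, such as Ucp1, Prdm16, Zic1, Lhx8 and Tbx1.

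Noradrenaline reaches fat cells through beta-adrenergic receptors, and of 22 genes of this pathway 18 were tested, with 9 higher, 5 lower and 4 not called in Day8 against Control (median 0.30), beside 71.4% of all genes called (31.7% higher, 39.7% lower). Adrb3, the receptor typical of fat, was listed at 0 up to MCE2. It read 1.56, 1.80 and 2.45 TPM in Day4, 27.7, 24.1 and 24.2 TPM in Day6, and 105.7, 74.9 and 71.9 TPM in Day8 (adjusted p = 1.31e-15 for Day8 against Control). Adrb3 also passed the filter only through these late groups, so that comparison is a description. Pde3b, which breaks down cAMP in response to insulin, rose by 4.56 ± 0.10 (adjusted p = 1.50e-15). The nuclear receptor Nr4a2 fell by 1.80 (adjusted p = 3.17e-07) and the kinase subunit Prkar2a by 1.11 (adjusted p = 8.66e-09), and Mapk14 and Atf2 were not called. Of 16 white fat markers 8 stayed under 1 TPM throughout, and of the 7 tested 6 were higher and 1, Nnat, was not called (median 4.19, with 3 of the 7 at 0 in Control), where 31.7% of all genes were called higher and 71.4% in either direction. The 3 at 0 in Control passed the filter through later groups and could not come out lower, so the count is a description. Adipoq (adiponectin) stood at 3594 ± 65.9 TPM and Retn (resistin) at 1249 ± 134 TPM in Day8, and both were listed at 0 in Control. Agt rose by 5.03 ± 0.18 (adjusted p = 7.52e-13) and Dpt by 4.19 ± 0.11 (adjusted p = 1.38e-14). Of 17 paralogs of the markers, 11 were tested and 3 were higher, 6 lower and 2 not called in Day8 against Control (median -0.42), where 71.4% of all genes were called, 31.7% higher and 39.7% lower.

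The genes most alike in pattern to each tested marker were named by Pearson's r over the 18 libraries on log2(TPM + 1), as a description. The libraries share 6 group levels, so high values are common. Cox7a1 was followed most closely by C1qtnf12 (r = 0.991), Grtp1 (r = 0.99) and Cox8b (r = 0.989), and Cox8b by Slc25a34 (r = 0.995), C1qtnf12 (r = 0.994) and Abcd2 (r = 0.993). Slc25a34, a mitochondrial carrier, was listed at 0 up to MCE2 and averaged 28.2 TPM in Day8. Ucp3 was closest to Pck1 (r = 0.992), Adrb3 (r = 0.991) and Ddo (r = 0.99). Pck1, which in fat cells supplies glycerol for triglycerides, averaged 109 TPM in Day8 and was listed at 0 in Control. The genes closest to Ucp2, each with its highest mean at MCE2, were Hs6st1 (r = 0.965), Cryge (r = 0.958) and Itsn1 (r = 0.952). Ppargc1a lay closest to the lipoprotein receptor Scarb1 (r = 0.968), Myl6b (r = 0.967) and the sterol regulator Insig1 (r = 0.963). Ppargc1b lay closest to Hadha (r = 0.991), an enzyme of fatty acid oxidation, the aconitase Aco1 (r = 0.99) and the mitochondrial carrier Slc25a10 (r = 0.989).

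The labelled cell type was set beside lists of markers, which were chosen with earlier results of these data known and are not an independent check. All 7 fat cell markers were measured, and their summed level was 25291 to 27758 TPM in Day8 and 154 to 169 TPM in Control. Fabp4 alone averaged 15628 TPM in Day8, and Lep averaged 5.21 TPM. Of 7 brown fat markers, 4 were listed at 0 in all 18 libraries (Ucp1, Zic1, Lhx8 and Prdm16), and the sum of the 7 was 7.99 to 13.5 TPM in Day8 and 2.31 to 4.13 TPM in Control. Ucp1, Prdm16 and Ppargc1a are also among the 10 genes, so this list is not a separate check of them. In Day8 its sum came from Ppargc1a (mean 7.51 TPM) and Cidea (3.11 TPM), with Ebf2 listed at 0. Of 4 beige markers, 3 stayed under 1 TPM, and the sum was 1.81 to 4.21 TPM in Day8 and 0.602 to 1.46 TPM in Control. Only Cited1 reached 1 TPM, and it averaged 0.567 TPM in Control, 3.71 TPM in MCE1, 4.96 TPM in Day4, its highest group, and 2.66 TPM in Day8. The 8 fibroblast markers summed to 12503 to 17265 TPM in Day8 and 9479 to 10067 TPM in Control. The members of that list did not move together. Collagens were higher, with Col3a1 at 4831 ± 911 TPM in Day8 and 453 ± 51.4 TPM in Control, Col1a1 up by 1.08 and Col1a2 up by 0.94. Vim fell to 2248 ± 39.3 TPM in Day8, against 5403 ± 55.0 TPM in Control, Thy1 averaged 131 TPM in Day8 and 302 TPM in Control, and Pdgfrb averaged 47.6 TPM in Day8 and 87.1 TPM in Control. Of 6 macrophage markers, Adgre1, Ptprc and Itgam were at 0 throughout, and the sum was 3.88 to 4.87 TPM in Day8 and 5.46 to 7.74 TPM in Control. The 4 endothelial markers summed to at most 1.05 TPM. The name brown and beige fat markers therefore describes what the 10 genes are known for, and Ucp1 and Prdm16, which define that fate, were listed at 0 in these libraries. Of a list of 57 genes used by every cell, 56 were among the gene names and 0 were listed at 0 in any library. Values at and near 0 still have limits of their own, since some other widely used genes, picked for their low values, were there. Prkar1a, a widely used kinase subunit, was listed at 0 in 7 libraries, among them all 6 of Day6 and Day8. Txnrd1, a thioredoxin reductase, was at 0 in a library each of MCE1, Day4 and Day6 and reached at most 1.14 TPM, and Gnas, a G protein subunit, averaged 1.98 TPM in Day8 and 3.81 TPM in Control. In all, 29.2% of 25197 genes were listed at 0 in all 18 libraries. A gene at 0 is therefore called listed at 0 here and not absent, and the low values of Dio2 and Elovl3 carry the same doubt.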

How the data were processed

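Each library's table, as deposited by the authors, holds TPM per gene with gene names and coordinates, per the file headers. The submitters' processing notes name FastQC, cutadapt, HISAT2, StringTie and mm9; versions, annotation and read numbers are not given in the sources used here. The labels' protocols do not describe the library kit as stranded. TPM summed to 869497 to 880273 in a library.

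Tables were joined by gene name, leaving out 12 genes recorded at another locus in Control replicate 1, of which 0 were markers. A single limma model (version 3.58.1, R 4.3.3) with a mean for each of the 6 groups was fitted to log2(TPM + 1) of the 12695 genes that passed the filter. Variances were moderated with trend and robust settings on 12 residual degrees of freedom, tests were 2-sided, and p-values were adjusted by Benjamini-Hochberg over all genes in each of 9 comparisons and the F test. The script was tested on simulated data. Alternatives were a pseudocount of 0.1, no filter or 5 TPM, median-ratio and quantile scaling, a fit on 6 libraries, a replicate block and leaving out each library. Python 3.11.15, pandas 2.3.3, numpy 2.4.6 and matplotlib 3.10.9 made the tables and plots.

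The markers and lists were chosen with earlier results of these data known, and the motifs and the check of shared 50-base stretches after the values were seen. Prkar1a, Txnrd1 and Gnas were picked for their low values. From each list, the text names up to 4 called genes with the largest change in Day8 against Control, given a mean of 5 TPM or more on the higher side, up to 2 uncalled genes with the highest mean, and all paralogs. For each tested marker the 3 named genes most alike in pattern were given.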

Additional observations from a re-analysis of the deposited data

How the results depend on the processing

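Among the values of a marker's change under an alternative, 1309 kept their direction and their side of the threshold, 28 were no longer called, 4 became called and 0 reversed. Of the 28, 21 belong to Ucp2, in its steps from Day4 to Day6 and from Day6 to Day8, 4 to Ppargc1a, 2 to Cox7a1 and 1 to Ucp3. The step of Ucp2 from Day6 to Day8 (-0.24, adjusted p = 0.0462) reached adjusted p = 0.171 without Day8 replicate 3 and 0.134 without Day6 replicate 2, and its step from Day4 to Day6 reached 0.157 without Day4 replicate 1. With a pseudocount of 0.1 the markers called at Day8 against Day6 were 2, against 4 without it, and the cause was not tested. The fit on the 6 libraries alone called 1072 genes at Day8 against Day6, against 2761 in the fit over 18 libraries, which holds more residual degrees of freedom. Leaving out 1 library at a time gave 3 to 4 markers called in Day8 against Day6, 5 to 6 in Day6 against Day4, 4 to 5 in Day4 against Control and 2 to 3 in MCE2 against Control, with the other counts unmoved, and 2186 to 2826 genes called in Day8 against Day6.

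Replicate numbers are not stated to pair libraries, and deviations of libraries with the same number correlated between -0.07 and 0.09, over 0.1 in 0 of 45 pairs. With the replicate block 9040 genes were called in Day8 against Control, against 9061 without it, and 3 markers in Day8 against Day6, against 4, the step of Ucp2 being lost (adjusted p = 0.0594). The depth is unknown, so how little RNA of Ucp1 or Prdm16 could have gone unseen cannot be stated.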

Other observations

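Mir378a, a microRNA gene within Ppargc1b, was listed at 4.69, 1.34 and 5.35 TPM in Day8 and at 0, 0 and 1.29 TPM in Control. It read 2.38, 5.75 and 8.82 TPM in Day6. Reads over its span may come from the host gene or from the microRNA's precursor, and the TPM values do not tell them apart.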
